A study of Arabidopsis thaliana with 8 samples.

Results

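MeJA responses were compared between far-red (FR) light and darkness, to describe those whose measured size or direction differed. For each probe set, the MeJA response is the log2 ratio of the array with 50 μM MeJA to the array with 0 μM MeJA, taken in each of 2 genotypes and 2 lights, so a response of 1 is a 2-fold higher and -1 a 2-fold lower signal. A response was called light-specific where both genotypes of one light had a log2 ratio of at least 1, or both at most -1, and neither genotype of the other light passed that limit in the same direction. Of 22746 probe sets, 1426 (6.27%) met this rule. They were 338 (1.49%) up with MeJA under FR light only, 312 (1.37%) down under FR light only, 287 (1.26%) up in darkness only and 562 (2.47%) down in darkness only. A probe set can be in 2 of these classes, and 58 (0.255%) were up under FR light and down in darkness, while 15 (0.0659%) were the opposite. As the measured ratios chose these members, their ratios are given as a description and without a test.

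Whole seedlings 4 days old were grown on germination medium with 50 μM or 0 μM MeJA, either in darkness or in continuous FR light (1.5 μmol m-2 s-1). Wild-type Landsberg erecta (Ler) and hy5-1, a mutant of HY5 in the Ler background, were compared, and each of the 8 combinations of genotype, light and MeJA was hybridized to 1 Affymetrix ATH1 array. No condition was replicated, so the spread between the genotypes of a light was the only error that the design offered, and it holds any effect of the mutation as well as the noise of the arrays. HY5 has no named probe set here, so the genotype labels were not checked against its signal.

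The deposited log2 values were centred to a median of 0 in each probe set, once among the 4 FR arrays and once among the 4 dark arrays. Levels were therefore not compared between the lights, and only responses within a light were. The centring also hides whether a signal was bright or dim. In whole seedlings a changed share of an organ or cell type and a changed amount of RNA per cell cannot be told apart.

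MeJA is the methyl ester of jasmonic acid, a hormone of defence, wounding and reproductive development that also restrains seedling growth. Its active conjugate is bound by the receptor COI1 together with JAZ repressors, whose breakdown releases MYC and other transcription factors. FR light acts on seedlings through the photoreceptor phytochrome A and starts de-etiolation, and HY5 is a bZIP factor that accumulates in light and promotes de-etiolation.

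Many responses were shared by the lights. Both FR ratios were at least 1 for 1196 probe sets (5.26% of all), of which 551 also had both dark ratios at least 1, 307 had 1 of them, and 338 (28.3%) had neither. Of the 1004 (4.41%) with both FR ratios at most -1, 340 had both dark ratios there, 352 had 1, and 312 (31.1%) had neither. In darkness 1125 (4.95%) had both ratios at least 1, of which 287 (25.5%) had no FR ratio there, and 1279 (5.62%) had both at most -1, of which 562 (43.9%) had no FR ratio there. The class of transcripts lower with MeJA in darkness only was thus the most populated of the 4 and held the highest share of its own light's responses.

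Across the 22746 probe sets, the MeJA ratios of Ler and hy5-1 had a Pearson correlation of 0.35 under FR light and of 0.39 in darkness. Ratios of the same genotype in different lights had correlations of 0.31 in Ler and 0.34 in hy5-1, and the remaining combinations had 0.30 each. These correlations are descriptions over probe sets, which are not independent replicates, and no 2 of the ratios share an array. The genotypes of one light thus resembled each other little more than the same genotype did across the lights. The mean FR response and the mean dark response had a correlation of 0.46.

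The light difference of a response, which is the mean of both FR ratios minus the mean of both dark ratios, had a median of -0.03 over all probe sets. It was at least 1 for 2680 probe sets and at most -1 for 2092. In a limma fit of the 4 ratios on light, with 2 residual degrees of freedom and Benjamini-Hochberg adjustment, 0 of 22746 (0%) passed an adjusted p of 0.05, the smallest adjusted p being 0.42. At an unadjusted p of 0.05, 1679 (7.38%) passed, against 5% if no probe set differed. No single gene is therefore established as light-dependent by this test, and the genes below are given by their measured ratios.

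**Figure D1:**
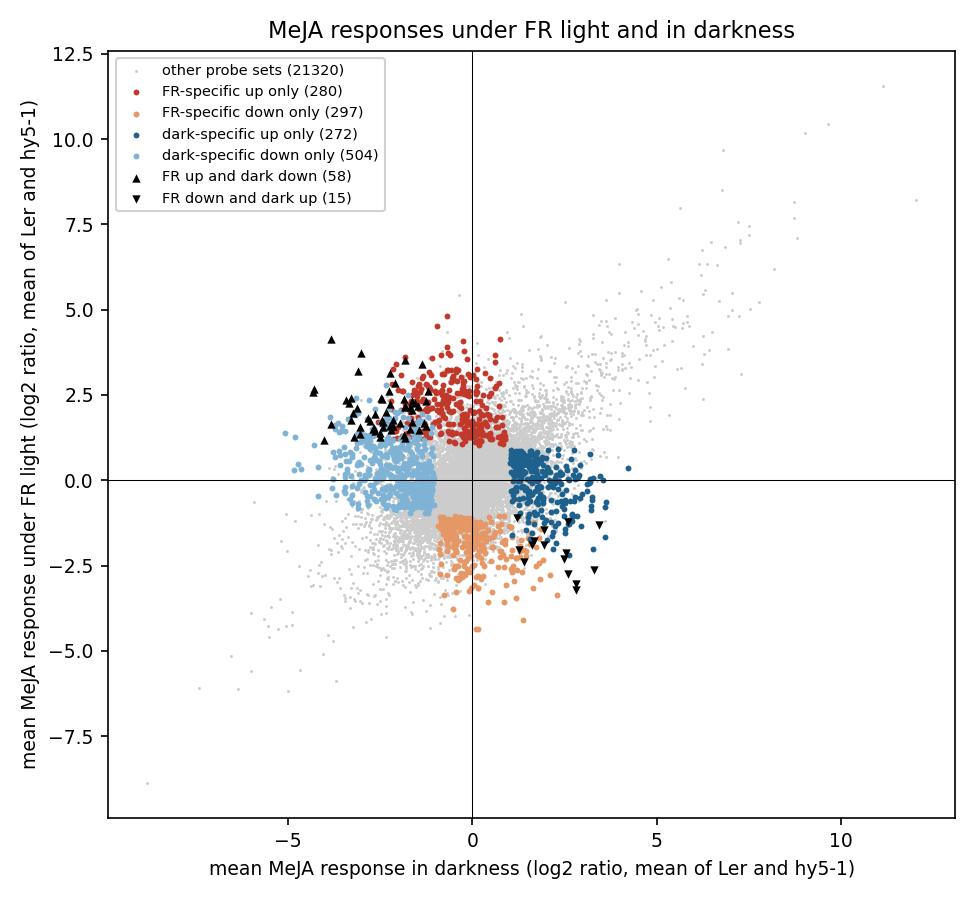
Mean MeJA response in darkness (x axis) against that under FR light (y axis), both as log2 ratios averaged over Ler and hy5-1, with 1 point for each of 22746 probe sets and the light-specific classes in colour. The 58 probe sets up under FR light and down in darkness lie at the upper left and the 15 opposite ones at the lower right.

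The genes with higher signals with MeJA under FR light only included the anthocyanin glycosyltransferase gene UF3GT, 4 β-glucosidases, enzymes of the cell wall and subtilisin-like proteases. For UF3GT, which adds a sugar in late anthocyanin synthesis, the FR arrays without MeJA had centred log2 values of -1.78 in Ler and -2.0 in hy5-1, and those with MeJA had 1.78 and 2.02. In darkness its values were -0.67 and 0.67 without MeJA, and -1.18 and 0.74 with MeJA, in Ler and hy5-1 respectively. Both genotypes thus had clearly separated values with and without MeJA under FR light, whereas in darkness the genotypes differed more than the treatments did. The resulting ratios were 3.56 in Ler and 4.02 in hy5-1 under FR light, and -0.51 and 0.07 in darkness. As the rule selects members with such a contrast, these values only describe it.

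DFR, the dihydroflavonol reductase that acts earlier in the same pathway, was not light-specific by the rule, since its dark ratios of 1.23 and 1.54 in Ler and hy5-1 also passed 1. Its FR ratios were larger, at 4.66 in Ler and 4.37 in hy5-1. The light difference was 3.13 ± 0.29 (standard error, limma, 2 pairs of arrays per light), with an adjusted p of 0.42. Of the 5 measured genes on a list of 21 anthocyanin and flavonoid genes, UF3GT was the only light-specific one. That was 20%, against 6.83% of all probe sets paired with 1 gene. The light differences of the 5 ranged from -0.72 to 4.01, with a median of 1.32 against -0.03 for all probe sets. This median is the value of AT4G14090, which had a standard error of 1.23 (limma), so it does not show a shift of the list. The flavonoid glucosyltransferase gene UGT78D2 had ratios of 0.42 and 0.14 under FR light and of -0.42 and 0.33 in darkness. AT5MAT, the gene of an anthocyanin malonyltransferase, had -0.05 and 0.44 under FR light and 1.87 and -0.05 in darkness. AT4G14090 had -0.31 and 2.41 under FR light and 0.57 and -1.12 in darkness, so its FR ratio was above 1 in hy5-1 only. UF3GT and DFR were the listed genes with both FR ratios above 1.

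**Figure D2:**
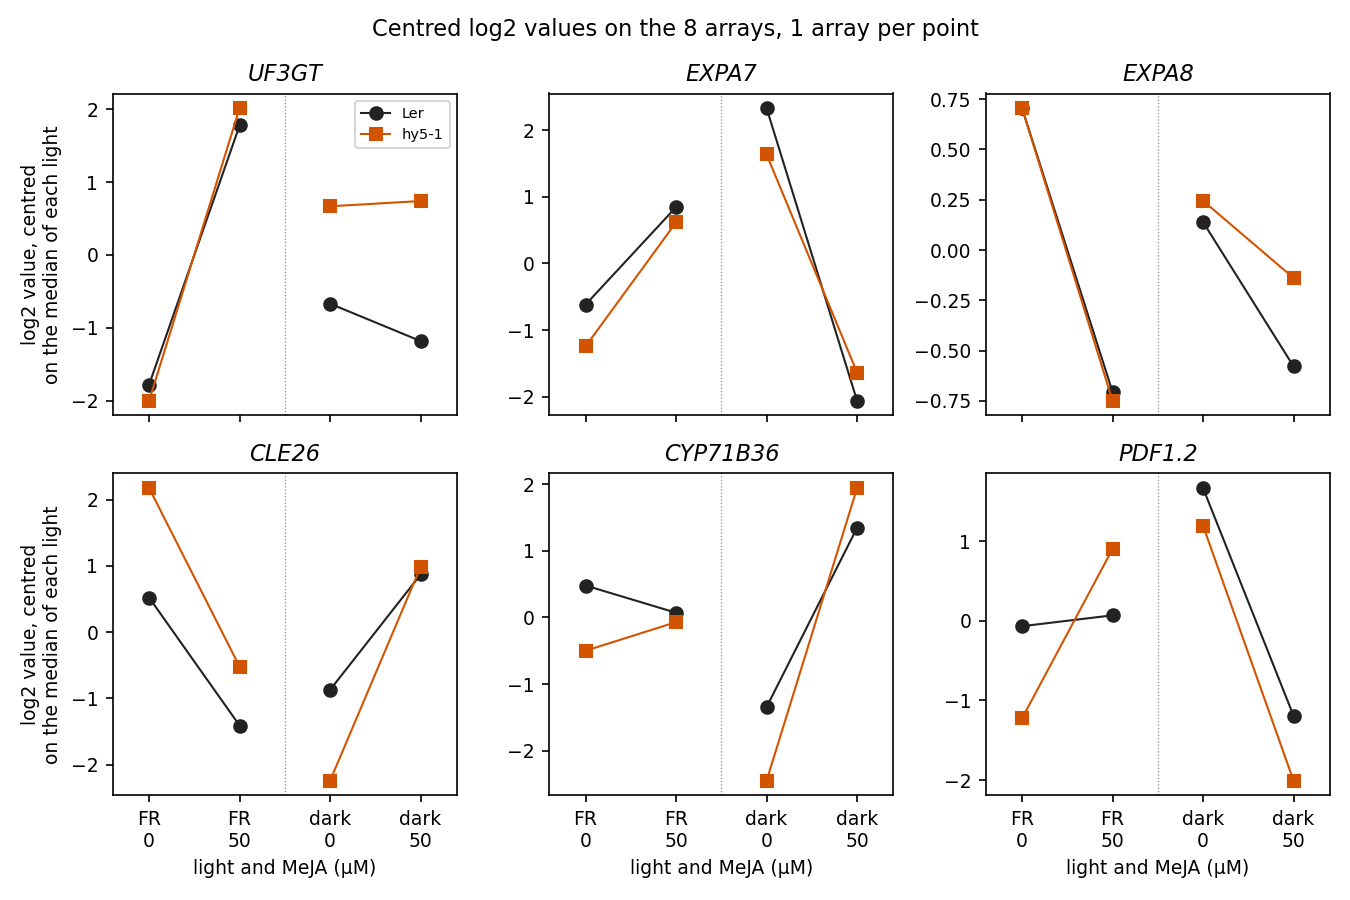
Centred log2 values (y axis) of UF3GT, EXPA7, EXPA8, CLE26, CYP71B36 and PDF1.2 on the 8 arrays, by light and MeJA dose in μM (x axis), with a line joining the arrays of one genotype and light. Heights can be compared within a light but not across the dotted line, because each light was centred on its own median.

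β-glucosidases release sugars from stored conjugates, among them defence compounds and hormones. Of 20 measured members of this family, 6 (30%) were light-specific, against 6.83% of all probe sets that are paired with 1 gene. BGLU27 had FR ratios of 2.62 in Ler and 3.13 in hy5-1, with dark ratios of 0.64 and -1.77. For BGLU24 the mean FR ratio was 1.53, and the dark ratios were 0.53 and -0.97. The adjacent genes BGLU43 and BGLU44 had FR ratios of 1.31 and 1.19, and of 1.61 and 1.25, respectively. Their dark ratios differed, being -3.11 and 0.21 for BGLU43 but 0.82 and 0.89 for BGLU44, which therefore lay close to the limit. BGLU36 and BGLU32 were up in darkness only and are described with that class.

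Genes of cell wall proteins were also found in this class. EXPB2, a β-expansin, had FR ratios of 2.41 in Ler and 1.53 in hy5-1 against 0.14 and -0.10 in darkness. GH9B17, of a family of endoglucanases, had 2.13 and 1.77 under FR light against -0.99 and 0.52. The subtilisin-like proteases SBT3.3 and SBT3.5 had FR ratios of 1.76 and 1.87, and of 3.27 and 1.76. In darkness both had small ratios, -0.04 and -0.32 for SBT3.3 and 0.26 and -0.72 for SBT3.5. For SBT3.3 the ratios of the genotypes lay close together in each light.

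Of the transcription factors, WRKY42 had FR ratios of 3.21 in Ler and 1.48 in hy5-1, with dark ratios of 0.09 and -1.68. The bZIP gene bZIP42 had 2.39 and 3.82 under FR light and -1.55 and 0.04 in darkness. AMS, a bHLH factor known from the tapetum of anthers, had 1.85 and 4.66 under FR light and -0.49 and -0.39 in darkness, so its FR ratios differed between the genotypes by more than its dark ratios did. The MADS-box genes AGL28 (1.68 and 1.12 under FR light) and AGL78 (1.55 and 1.49) were members as well. AGL78 had the same lowest value on several dark arrays, with dark ratios of 0.00 in both genotypes, so its dark response is not informative. IQD22, a calmodulin-binding IQD protein gene, met the rule with 1.35 and 1.07 against 0.90 and 0.87 in darkness, and left the class under quantile normalization.

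The largest FR ratios of the class belonged to loci that carry no gene symbol in the annotation. AT3G49960 had ratios of 5.17 in Ler and 4.43 in hy5-1 under FR light against -1.05 and -0.32 in darkness. Its values under FR light were -2.51 and -2.22 without MeJA and 2.65 and 2.22 with it, while its dark values lay between -0.40 and 0.64. AT2G32790 (4.56 and 3.24 under FR light) and AT1G32600 (4.36 and 3.79) had the same pattern, with dark ratios between -0.79 and 0.10. AT3G42530 (5.11 and 3.92) and AT2G10620 (4.30 and 3.97) are annotated as pseudogenes, and AT2G10620 left the class under either rescaling of the arrays because a dark ratio of 0.95 then passed 1.

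The most divergent members were up under FR light and down in darkness. Of the 58 probe sets, 38 were paired with 1 gene, and 4 of those genes have a symbol, EXPA7, ANX1, LCR59 and AGL79. The median ratios of all 58 probe sets were 1.90 in Ler and 1.86 in hy5-1 under FR light and -2.09 and -2.29 in darkness. EXPA7 encodes an expansin that is known from root hairs. Its values under FR light were -0.62 in Ler and -1.24 in hy5-1 without MeJA and 0.85 and 0.62 with it, and in darkness 2.33 and 1.63 without MeJA and -2.06 and -1.63 with it. The arrays with MeJA thus lay above those without it under FR light and below them in darkness, in both genotypes, with ratios of 1.46 and 1.86 against -4.39 and -3.27. Membership in both classes requires these opposite directions.

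The other measured root genes did not share this pattern in full. EXPA18, another root hair expansin, had FR ratios of 0.96 and 0.83, just under the limit, and dark ratios of -3.73 and -0.97. PYK10, a β-glucosidase of the root, had ratios between 0.01 and 0.43 in all 4 pairs. GH9C1, an endoglucanase gene expressed in root hairs, was down in darkness only, with -2.72 and -2.50, and had 0.12 and 1.05 under FR light. Whether the share of root or root hair tissue differed between the samples was not tested, and of the 6 markers of root and root hair that were listed, 3 have a named probe set.

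ANX1, a receptor-like kinase known from pollen tubes, had FR ratios of 3.04 in Ler and 1.48 in hy5-1, with dark ratios of -3.04 and -3.62. LCR59, a gene of a small cysteine-rich peptide similar to defensins, had 1.57 and 1.38 under FR light and -1.22 and -3.18 in darkness. The MADS-box gene AGL79 had 3.07 and 1.45 against -1.89 and -1.19 with the probe set that met the rule. A different probe set of AGL79 had -0.64 and -2.78 under FR light and -3.15 and 0.00 in darkness, so the opposite responses rested on 1 of its 2 probe sets. Among loci without a symbol, AT5G45690 had the largest light difference of those named, 6.92, from FR ratios of 2.40 and 2.80 and dark ratios of -4.61 and -4.04. AT5G52690 (3.79 and 3.65 against -3.92 and -2.10) and AT4G19910 (3.35 and 2.94 against -2.12 and -2.36) were similar. The pseudogene AT3G29610 (3.38 and 3.04 against -2.55 and -3.63) had its lowest dark value on more than 1 array.

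The opposite combination, down under FR light and up in darkness, held 15 probe sets, 9 of them paired with 1 gene. CLE26, a gene of a CLE signalling peptide, was the only one with a symbol. Its values under FR light were 0.52 in Ler and 2.18 in hy5-1 without MeJA and -1.41 and -0.52 with it. In darkness they were -0.87 and -2.24 without MeJA and 0.87 and 0.98 with it. The ratios were -1.93 and -2.70 under FR light and 1.74 and 3.23 in darkness, and in neither light did the arrays with and without MeJA overlap. The rule that chose CLE26 favours such a separation, so it is no further evidence. The neighbouring locus AT1G69990 was down under FR light only, with -2.75 and -3.58, and had 0.15 and 0.17 in darkness. AT5G48200 (-3.46 and -2.99 against 3.76 and 1.87) and the long non-coding RNA AT3G27990 (-2.52 and -2.73 against 3.31 and 3.29) had the largest negative light differences of the 9 loci, -6.04 and -5.92.

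**Figure D3:**
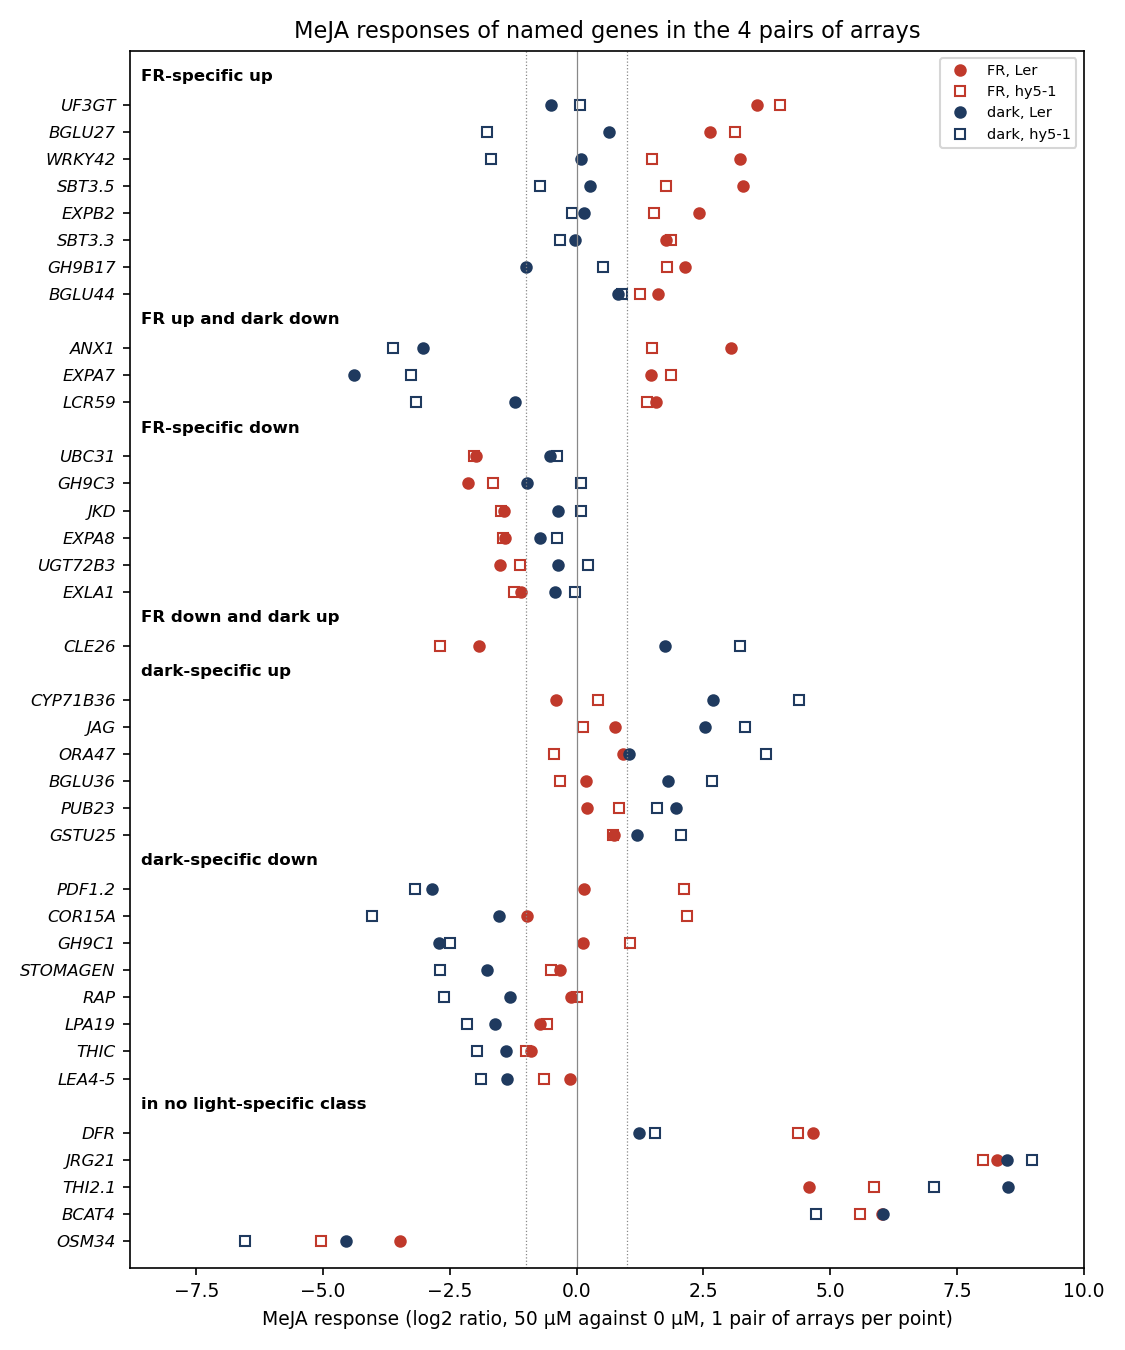
MeJA responses (x axis, log2 ratio of 50 μM to 0 μM) of named genes (rows, grouped by class), with 1 point for each pair of arrays, red for FR light, blue for darkness, filled for Ler and open for hy5-1. Red and blue points separate in the light-specific groups by the construction of the rule, whereas JRG21 at the bottom has all 4 points between 8.02 and 8.98.

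Genes with lower signals with MeJA under FR light only included growth-related cell wall proteins. EXPA8, an α-expansin, had nearly equal FR values in the genotypes, 0.71 and 0.71 without MeJA and -0.71 and -0.75 with it. In darkness its values were 0.14 and 0.24 without MeJA and -0.58 and -0.14 with it, in Ler and hy5-1. All 4 ratios were below 0, at -1.41 and -1.45 under FR light and -0.72 and -0.38 in darkness, so its class reflects the size of the response more than its direction. EXLA1, an expansin-like gene, had -1.10 and -1.24 against -0.42 and -0.04. The endoglucanase family gene GH9C3 had -2.13 and -1.64 against -0.98 and 0.08, and left the class under quantile normalization. Over an expansin family defined by symbol, which did not include EXLA1, 3 of 14 measured members were light-specific, namely EXPA7, EXPB2 and EXPA8. That was 21.4%, against 6.83% of all probe sets paired with 1 gene, and the family's median light difference was -0.04.

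JKD, a zinc finger factor of root patterning, had FR ratios of -1.44 in Ler and -1.50 in hy5-1 against -0.37 and 0.09. SAP, a regulator of flower and ovule development, had -2.20 and -1.16 against -0.16 and -0.13. MYR2, of the MYB-related factors, had -1.19 and -1.46 against 0.38 and -0.26. These regulators had dark ratios within 0.38 of 0. UBC31, a ubiquitin-conjugating enzyme gene, had -1.99 and -2.02 against -0.53 and -0.39, and the tetraspanin gene TET16 had -1.12 and -2.12 against 0.27 and 0.03. UGT72B3, of the UDP-glycosyltransferases, had -1.52 and -1.11 against -0.36 and 0.22.

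TBL38 and TBL41 belong to the trichome birefringence-like family, whose members acetylate wall polysaccharides. TBL38 had -1.49 and -1.08 under FR light and -0.90 and -0.62 in darkness, and TBL41 -1.03 and -1.08 against -0.22 and 1.69. TBL41 left the class when each array was centred on its own median. CEG had -2.45 and -1.07 under FR light with tied lowest dark values, and left it under quantile normalization. Of the loci without a symbol, AT1G70985 (-3.66 and -3.48 against 0.98 and 0.72) and AT2G15020 (-3.38 and -3.56 against 1.55 and 0.80) were among those with the lowest mean FR ratio, and their dark ratios were above 0.

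Transcripts encoded in the plastid genome were shifted as a group, although few met the rule. They were examined after 3 of them had been seen in the class down under FR light only. Of 69 probe sets for plastid-encoded genes, 65 (94.2%) had a negative light difference, compared with 52.1% of all probe sets, and the median was -0.58 against -0.03. Their median ratios were -0.49 in Ler and -0.62 in hy5-1 under FR light, and -0.03 and 0.09 in darkness. Both FR ratios were below 0 for 60 (87.0%, against 38.3% of all probe sets) and both dark ratios for 23 (33.3%, against 37.0%). At or below -1 lay 12 in Ler and 14 in hy5-1 under FR light, where 11.2% and 13.4% of all probe sets did, and 0 and 2 in darkness, where 13.1% and 16.1% did. With quantile normalization 64 and with arrays centred on their medians 63 of the 69 had a negative light difference. Plastid genes are transcribed in few long units, so these probe sets are not independent of each other.

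Most probe sets of each function that these genes serve had a negative light difference, but its size was not the same for all functions. The light difference was negative for 15 of 15 probe sets of photosystem II, 5 of 5 of photosystem I, 10 of 10 of the NADH dehydrogenase-like complex, 6 of 6 of the ATP synthase and 13 of 15 of ribosomal proteins. It was negative for 5 of 6 of the cytochrome b6f complex and 3 of 4 of the plastid RNA polymerase. The median light difference of the RNA polymerase group was -0.04, near the -0.03 of all probe sets. The medians of the other groups lay between -0.76 for photosystem I and -0.46 for the cytochrome b6f complex. The 3 members of the class were ycf4, an assembly factor of photosystem I, petG, a small subunit of the cytochrome b6f complex, and ndhF, of the NADH dehydrogenase-like complex. Their ratios were -1.01 and -1.31 against -0.20 and -0.09 for ycf4, -1.20 and -1.73 against -0.60 and -0.57 for petG, and -1.01 and -1.51 against -0.96 and -0.08 for ndhF. ycf4 and ndhF left the class when arrays were centred on their medians. The photosystem II gene psbB, with -1.29 and -0.51 against 0.27 and 0.79, and ndhE, with -0.89 and -1.37 against 0.15 and 0.43, had more negative light differences, -1.43 and -1.42, without meeting the rule. petD was an exception, with 0.52 and 0.03 against -0.66 and -0.56.

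Of 23 listed nuclear photosynthesis genes 3 were measured. Their light differences were negative, as were those of 52.1% of all probe sets. LHCB4.1, of the light-harvesting antenna, had ratios between -0.23 and 0.13 in the 4 pairs and a light difference of -0.21. RCA, the activase of Rubisco, had -0.08 and 0.24 under FR light and 0.28 and 0.62 in darkness, a difference of -0.37. PSAE-1, a subunit of photosystem I, had 0.43 and -0.02 against 0.82 and 1.17, a difference of -0.79. The standard errors of these differences (limma) were 0.27 for LHCB4.1, 0.30 for RCA and 0.33 for PSAE-1. None of the 3 was light-specific, and whether they differed from the plastid-encoded transcripts was not tested.

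**Figure D4:**
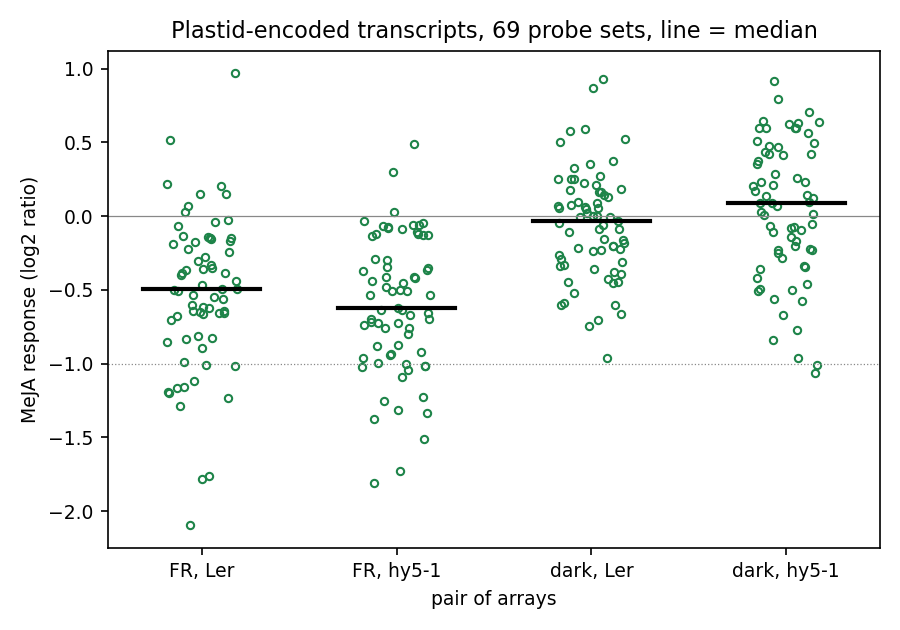
MeJA responses (y axis, log2 ratio) of 69 probe sets for plastid-encoded transcripts in each pair of arrays (x axis), with a line at the median. The medians were -0.49 and -0.62 under FR light and -0.03 and 0.09 in darkness, and 12 and 14 probe sets lay at or below -1 under FR light, against 0 and 2 in darkness.

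Genes with higher signals with MeJA in darkness only were led among those with a symbol by CYP71B36, a cytochrome P450. Its dark values were -1.34 in Ler and -2.45 in hy5-1 without MeJA and 1.34 and 1.94 with it. Under FR light its values were 0.48 and -0.50 without MeJA and 0.07 and -0.07 with it. The dark arrays with and without MeJA did not overlap, while the FR arrays with MeJA lay between those without it. Membership in the class favours this contrast, which is given as a description. The ratios were 2.69 and 4.39 in darkness and -0.41 and 0.43 under FR light.

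ORA47, PUB23 and GSTU25 of this class are known from jasmonate and stress responses, and were picked for that annotation after the class was known. ORA47, an AP2/ERF factor that activates jasmonate synthesis genes, had dark ratios of 1.03 in Ler and 3.72 in hy5-1, with FR ratios of 0.91 and -0.45. In Ler alone the dark and FR ratios of ORA47 differed by little, and its place in the class rested on hy5-1. PUB23, a U-box ubiquitin ligase of stress responses, had a mean ratio of 1.77 in darkness and FR ratios of 0.21 and 0.83. GSTU25, a glutathione transferase gene, had 1.18 and 2.05 against 0.73 and 0.73, so its ratios were above 0 in all 4 pairs. Of the measured glutathione transferases 1 of 13 (7.69%) was light-specific, and of U-box and F-box proteins 1 of 10 (10%). The share was 6.83% of all probe sets paired with 1 gene.

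The β-glucosidase gene BGLU36 had dark ratios of 1.81 in Ler and 2.66 in hy5-1, with FR ratios of 0.17 and -0.32. BGLU32 had 1.49 and 1.52 in darkness against 0.52 and -1.35. The β-glucosidase family thus had 4 members in the FR class and 2 in the dark class, and its median light difference was 0.13. JAG, a zinc finger factor of organ growth, had 2.54 and 3.32 in darkness against 0.75 and 0.12. PLIM2a, a LIM protein of pollen, had 3.38 and 1.86 in darkness, but its FR ratios of -2.61 and 0.01 differed between the genotypes. The MADS-box gene AGL94 had 1.55 and 2.00 against -1.05 and 0.02.

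Among the loci without a symbol, AT1G76780 had the highest mean dark ratio of those named, with 3.91 in Ler and 4.55 in hy5-1 against 0.27 and 0.42 under FR light. Its dark values were -1.96 and -2.25 without MeJA and 1.96 and 2.31 with it, and its FR values lay between -0.64 and 0.78. AT1G54420 had 3.94 and 3.3 against -0.97 and -0.31. AT3G14580 had 4.02 and 2.94 against 0.10 and 0.14, so these loci combined large dark ratios with small FR ratios.

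Genes with lower signals with MeJA in darkness only formed the largest class of the 4. PDF1.2, the plant defensin that is widely used as a marker of the combined jasmonate and ethylene response, was among them. Its dark values were 1.66 in Ler and 1.19 in hy5-1 without MeJA and -1.19 and -2.01 with it. Under FR light they were -0.07 and -1.22 without MeJA and 0.07 and 0.90 with it. In darkness both genotypes thus had lower values with MeJA, with ratios of -2.86 and -3.20, while under FR light the ratio was 0.14 in Ler and 2.12 in hy5-1. PDF1.2b, a close paralog, had -0.31 and 0.89 under FR light and 0.20 and 0.32 in darkness, so the dark ratios of PDF1.2 were not shared, although a probe set may also bind transcripts of a paralog. Of 7 measured genes on a list of 14 jasmonate and ethylene response genes, PDF1.2 was the only light-specific one, and the median light difference of the 7 was 0.03.

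Some genes of cold, dehydration and seed proteins were members as well, and were picked for their annotation after the class was known. COR15A, a cold-regulated chloroplast protein gene, had dark ratios of -1.53 in Ler and -4.04 in hy5-1, with FR ratios of -0.97 and 2.17, so the genotypes were on opposite sides of 0 under FR light. COR15A left the class under quantile normalization, where its FR ratio in Ler was -1.07. On a list of 12 cold and abscisic acid response genes 3 were measured, and COR15A was the only light-specific one. COR47 had -1.34 and -1.42 under FR light and -0.97 and -1.16 in darkness. COR15B had 0.15 and -0.19 under FR light and -0.20 and -0.98 in darkness. The late embryogenesis abundant protein genes LEA4-5 and AtLEA4-1 had dark ratios of -1.38 and -1.88, and of -1.82 and -1.11. Their FR ratios were -0.13 and -0.65 for LEA4-5 and -0.51 and 0.44 for AtLEA4-1, which left the class under quantile normalization. EEL, a bZIP factor of seed maturation, had -1.19 and -1.89 in darkness against -0.53 and -0.95. On a list of 21 seed maturation genes 4 were measured, of which 1 was light-specific, and the median light difference was 0.86. Another of the 4, M17, a late embryogenesis abundant protein gene, had 2.18 and 3.02 under FR light but -6.26 in Ler and 4.93 in hy5-1 in darkness. M10, also on that list, had 5.71 and 7.97 under FR light and 6.27 and 7.43 in darkness.

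A group of nuclear genes for chloroplast proteins was found in this class among the members with a symbol. THIC, a thiamine synthesis enzyme of the chloroplast, had dark ratios of -1.39 in Ler and -1.97 in hy5-1, with FR ratios of -0.90 and -0.99, so it was below 0 in all 4 pairs. LPA19, an assembly factor of photosystem II, had -1.61 and -2.17 against -0.72 and -0.59. Cpn60beta4, a chloroplast chaperonin subunit, had -1.11 and -1.56 against -0.12 and -0.06. RH39, a chloroplast RNA helicase, had -1.14 and -1.55 against 0.05 and 0.37. RAP, a chloroplast protein of ribosomal RNA maturation, had -1.31 and -2.61 against -0.10 and 0.00. PHYLLO, an enzyme of phylloquinone synthesis, had -1.32 and -1.71 against 0.01 and 1.37. They were picked for their annotation after the class was known, and the rule of the class fixes the positive sign of their light differences, so nothing about nuclear chloroplast genes as a whole follows from them.

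STOMAGEN, a peptide that promotes the formation of stomata, had dark ratios of -1.77 in Ler and -2.69 in hy5-1, with FR ratios of -0.33 and -0.50. Its neighbour GILT, a thiol reductase gene, was in the same class with -1.11 and -1.85, but had 3.20 and 0.17 under FR light. None of the 3 measured stomatal lineage markers was light-specific. TMT2, TMT3 and SWEET7, genes of sugar transporters, were members of the class. In a family of sugar transporters defined by symbol, which did not include TMT2 and TMT3, SWEET7 was the only light-specific one of 15 (6.67%). That was near the 6.83% of all probe sets paired with 1 gene. The vacuolar carriers TMT2 and TMT3 had dark ratios of -1.25 and -1.39, and of -1.18 and -4.17, against FR ratios between -0.78 and -0.37. SWEET7 had -3.62 and -1.27 in darkness against 3.37 and 0.08.

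HAT2, a homeodomain-leucine zipper factor of the auxin response, had dark ratios of -1.74 and -1.53 against -0.52 and -0.85. The MADS-box genes AGL24 and AGL42, known from flowering, had -2.21 and -1.35, and -1.50 and -1.96, in darkness. Under FR light AGL24 had -0.77 and 0.64 and AGL42 0.79 and 1.15. Over the MADS-box family, 6 of 42 probe sets (14.3%, against 6.83% of all probe sets paired with 1 gene) were light-specific, 3 up under FR light, 1 up in darkness and 3 down in darkness, with AGL79 in both an FR and a dark class. CYP71B31, UGT85A5 and TBL36 were further members, with dark ratios of -3.08 and -1.93, -1.75 and -1.93, and -1.37 and -1.33, respectively.

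Among loci without a symbol, AT4G26010 had dark ratios of -4.62 in Ler and -3.72 in hy5-1 against 0.07 and 0.68 under FR light. AT2G36145 had -2.31 and -6.08 against -0.42 and -0.51, with a wide gap between the genotypes. The pseudogene AT3G44470 had -3.70 and -3.84 against 0.11 and -0.05, with nearly equal ratios in the genotypes of each light.

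Some genes with large MeJA responses in both lights were not light-specific. JRG21, a jasmonate-regulated oxygenase gene, had ratios of 8.28 in Ler and 8.02 in hy5-1 under FR light and 8.49 and 8.98 in darkness. BCAT4, which starts the synthesis of methionine-derived glucosinolates, had 6.01 and 5.59 against 6.04 and 4.72. OSM34, an osmotin-like gene, had -3.49 and -5.04 against -4.54 and -6.54. The light differences of these 3 genes, -0.59, 0.43 and 1.27, were small beside the responses themselves.

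Other strongly responding genes had responses of one direction but of unequal size in the lights. THI2.1, a thionin, had ratios of 4.58 and 5.87 under FR light and 8.51 and 7.04 in darkness, a light difference of -2.55 ± 0.78 (standard error, limma, adjusted p 0.66). CHAT, which makes a green leaf volatile ester, had 3.06 and 2.33 against 7.81 and 3.75, and the spread between the genotypes in darkness was larger than the light difference of -3.08. WSD1, a wax ester synthase, had -3.97 and -3.78 against -6.40 and -5.62, a difference of 2.13 ± 0.39 (limma, adjusted p 0.53). AT2G38240 had 6.54 and 6.14 against 4.15 and 3.80, a difference of 2.37 ± 0.32 (limma, adjusted p 0.46), and the peroxidase gene PRX52 had 7.32 and 3.10 against 2.55 and 2.46. The FR and dark ratios did not overlap for any of THI2.1, WSD1, AT2G38240 and PRX52. Of all 22746 probe sets, 4440 had this property with FR light higher and 4855 with FR light lower. The property is thus common and does not set these genes apart.

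Of the genes of jasmonate synthesis and signalling, few have a named probe set. None of 4 measured genes of synthesis and turnover and none of 2 measured genes of signalling was light-specific. OPCL1, a ligase of jasmonate synthesis, had ratios of 1.24 and 2.70 under FR light and 2.17 and 2.83 in darkness. JMT, which methylates jasmonic acid, had 2.52 and -1.42 against 0.00 and 4.60, with tied lowest dark values, so the genotypes differed more than the lights. MYC4, a bHLH factor of the jasmonate response, had -0.60 and -0.42 under FR light and 0.39 and 1.44 in darkness, with a light difference of -1.43 ± 0.47 (limma, adjusted p 0.67). Its homologue MYC3 had ratios between -0.15 and 0.36.

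Of the light signalling genes, HYH, the homologue of HY5, had ratios of -0.71 and -1.09 under FR light and -1.64 and -0.92 in darkness, and FHL, which brings phytochrome A into the nucleus, had -0.81 and -1.80 against -0.86 and 0.00. Neither was light-specific. The 4 measured reference genes had light differences between -0.19 and 0.27. Over 17 pathway lists with 257 genes, 52 genes were measured. Of these 52, 6 were light-specific, namely UF3GT, PDF1.2, EXPA7, EXPA8, LEA4-5 and COR15A, where 6.83% of all probe sets paired with 1 gene were. The lists were chosen with earlier results of these data known, so this share is no result about pathways. Of 42 gene families defined by symbol, 31 had a measured member and 14 a light-specific one. Families had up to 47 measured members, and a larger family is more likely to hold a light-specific one. The count of families was not compared with an expected one. Cytochromes P450 had 2 of 23 and UDP-glycosyltransferases 2 of 47, near or below the 6.83% of all probe sets paired with 1 gene.

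The classes differed in how far the lights were apart. Median ratios of the class up under FR light were 1.96 in Ler and 1.79 in hy5-1 against -0.50 and -0.34 in darkness, and those of the class down in darkness were -1.69 and -1.89 against 0.13 and 0.09. For the class down under FR light they were -1.61 and -1.60 against -0.18 and -0.14, and for the class up in darkness 1.6 and 1.66 against 0.25 and 0.12. The nearer FR and dark ratios were at least 1 apart for 248 (73.4%) of the class up under FR light, 158 (50.6%) of that down under FR light, 136 (47.4%) of that up in darkness and 354 (63.0%) of that down in darkness. The remaining members had a smaller gap, and the limit placed them in a class.

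The values just at the limit show this. Within the class up under FR light the lowest ratio was 1.00, in AT4G04110, and AT4G38120, with 0.998, fell just outside. In the other light AT3G22350 was admitted with 0.998 in dark Ler and NET3B was left out with 1.01. For the class down in darkness AT1G37020 was admitted with -1.0 in hy5-1, while AT2G16300 was left out with -0.999.

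The annotation of the members was not used by the rule. Of the members paired with 1 gene, 18.2% of the class up under FR light, 13.6% of that down under FR light, 11.5% of that up in darkness and 12.8% of that down in darkness were annotated as pseudogenes, against 7.36% of all probe sets paired with 1 gene. The genotypes, averaged over both MeJA doses, differed by at least 2-fold in 28.7% of the class up under FR light on the FR arrays and in 35.8% on the dark arrays, against 12.4% and 12.3% of all probe sets. In the other classes these shares were between 17% and 24.7%. Unlike the annotation, the genotype differences come from the same array values that the rule used. A probe set with a wide spread over the arrays can pass both limits, so these shares are no independent trait of the members.

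A second measurement of the same gene was available for a few members. Of 144 genes with several probe sets of their own, 15 had a light-specific one. None of the 16 other probe sets of these genes was in the same class, and 6 of the 16 had a light difference of the same sign. Each class held between 1.26% and 2.47% of all probe sets, and 52.1% of all had a negative light difference. The other probe sets thus did not repeat the calls of these members. With 1 array per condition, this repeat on the same RNA is the only one that the arrays offer for single members.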

How the data were processed

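The authors' values were deposited as log2 values of 22810 probe sets on 8 ATH1 arrays. The submitters' processing notes name MAS5 and the study's methods GeneSpring GX. The log base, the array scaling and any floor of the signals are not given in the sources used; base 2 was assumed. Each probe set had a median of 0 over the 4 FR arrays and over the 4 dark arrays. The 64 control probe sets were left out. Of the remaining 22746, the platform annotation and RefSeq (TAIR10.1) paired 13436 with 1 gene. No name was given to the 503 with several genes, the 77 with only a symbol and the 8730 that the annotation did not list.

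The 4 MeJA ratios, 1 per genotype and light, were fitted on light in limma 3.58.1 (R 4.3.3) with empirical Bayes moderation, two-sided, over all probe sets. The fit was also run on simulated ratios with the same spread for every probe set. That run does not show how the fit behaves with the unequal spreads of the measured ratios. Quantile normalization, centring on array medians, leaving out tied lowest values, other fold limits, genotype as a covariate, a variance trend and leaving out each pair of arrays were tried. The members, gene lists and families were chosen with earlier results of these data known. Genes were named where they led a class or the light difference, had the smallest p, or belonged to a list or family. Members with a symbol, plastid-encoded genes and further listed genes were named after their values had been seen. The number of arrays limits the precision.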

Additional observations from a re-analysis of the deposited data

Results flagged for a closer look

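Of the named genes, 11 had both genotypes past 2-fold in one direction under FR light and past 2-fold in the other direction in darkness. The light difference of the MeJA response, on the log2 scale, was 6.92 for AT5G45690, 6.73 for AT5G52690, 6.30 for the pseudogene AT3G29610, 5.59 for ANX1, 5.49 for EXPA7, 5.39 for AT4G19910, 3.80 for AGL79 and 3.67 for LCR59. In the opposite direction it was -6.04 for AT5G48200, -5.92 for the long non-coding RNA AT3G27990 and -4.80 for CLE26. The ratios themselves chose these genes, so the difference between the lights was not tested for them. AT3G29610 had tied lowest dark values, and AGL79 had another probe set without opposite responses. Each value rests on 1 array per condition.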

How the results depend on the processing

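The limma fit called 0 probe sets under every alternative run, with 1456 to 1970 at an unadjusted p of 0.05 and a smallest adjusted p between 0.16 and 0.68, and genotype as a covariate gave 1789 at an unadjusted p of 0.05. The counts depended on the fold limit. With 1.5-fold there were 582 probe sets up and 708 down under FR light only, and 514 up and 954 down in darkness only. With 3-fold there were 206, 156, 178 and 290, in the same order. With a limit of 0.5 in the other light, 172 were down under FR light only and 157 up in darkness only. Quantile normalization, arrays centred on their medians and leaving out tied lowest values kept each class within 1.5 times its count, and each rescaling shared 86.1% to 97.6% of a class's members. Of 928 values, 8 alternatives for each of 116 light differences, 916 kept their sign. For members of a class the rule fixes this sign when a pair of arrays is left out. Genotype as a covariate and a variance trend leave the light difference itself unchanged. The count therefore does not measure how robust the members are. Without the hy5-1 FR pair, the light difference was 0.93 for the other AGL79 probe set, 0.22 for JMT, -0.58 for PDF1.2b and -0.039 for AT4G14090. Without the hy5-1 dark pair it was 1.44 for that AGL79 probe set, -0.23 for BCAT4 and 0.55 for JMT. Without the Ler dark pair it was -2.33 for M17, 0.24 for AT5MAT, -0.043 for UGT78D2 and -0.034 for PDF1.2b, and without the Ler FR pair 0.20 for OPCL1. The cause was not tested. Centred values hide how bright a signal was, so how far dim signals enter these counts was not tested.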
